A study of Homo sapiens with 4 samples.

Results

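Solute carriers of the plasma membrane and of intracellular vesicles were described by how their transcripts differed between lymphoma cells given siRNA against MYC and control cells. Members were the genes whose platform symbol has the form SLC, a family number, A and a member number, or begins with SLCO. The mitochondrial SLC25A carriers were left out, and a value on at least 2 arrays was required. This gave 37 genes, measured by 67 features, of 4454 named genes with a value on at least 2 arrays. A value on all 4 arrays was present for 35 of the 37. SLC11A1 had a value on 3 arrays and SLC39A7 on 2. By its spelling the rule does not take the 6 other SLC symbols on the array (SLC35B3, SLC35E1, SLC8B1, SLC9B1, SLC9B2 and SLC71A3P).

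The cells were OCI-Ly10, an established human lymphoma line (diffuse large B-cell lymphoma, activated B-cell subtype). On each of 4 two-colour arrays, RNA of cells electroporated with 4 uM of a siRNA pool against MYC (Cy5) was hybridised with RNA of control cells (Cy3). Controls had been electroporated with 4 uM of a siRNA directed at Renilla luciferase (24 h and 8 h arrays) or in buffer without siRNA (24 h and 6 h arrays). Every combination of control and time was 1 array, all cells were of 1 line, and the labels do not say which cultures were separate. Each value is a log2 ratio of MYC siRNA over control, so that values below 0 are lower with MYC siRNA. Neither log base nor direction is stated in the sources used here, and both were inferred from the values and dye labels. Ratios hold no expression level, so the labelled cell type was not checked against its markers and no gene's abundance was compared with another's.

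Solute carriers are membrane proteins that move amino acids, sugars, vitamins, ions, metals and drugs across membranes by facilitated diffusion or by coupling to ion gradients. Families are numbered by sequence, and members sit in the plasma membrane or in the Golgi, endosomes, lysosomes and secretory vesicles. MYC is a transcription factor that raises growth and nutrient use in many tumours. Genes for glucose uptake (SLC2A1) and for uptake of essential amino acids (SLC7A5 with SLC3A2) are among the carriers often described as responsive to MYC in other cells.

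Between 12028 and 12784 features had a value on an array, and array medians lay from -0.034 to 0.014. The standard deviation over features was 0.447 on the 24 h array against no siRNA and 0.288 to 0.327 on the others. MYC transcript itself was at -0.35 (24 h) and -0.94 (8 h) against control siRNA, and stood at -1.03 (24 h) and -1.26 (6 h) against no siRNA. Its mean was -0.89 ± 0.39 (SD, n = 4; limma adjusted p = 0.0146), with an exact two-sided sign-flip p of 0.125, the smallest that 4 arrays allow. MYC did not pass without the 6 h array (-0.77; limma adjusted p = 0.053) or on the arrays against control siRNA alone (-0.64; 0.0917). The sign of MYC helped to set the direction of the ratios, so it does not check the labels independently. In bulk RNA, fewer cells of a type and less RNA per cell cannot be told apart, here and in every value that follows. With no dye swap, dye bias of single genes cannot be told apart from a response. Of the T cell markers 0 of 6 measured genes passed in limma, and the list's median by array was 0.17 (24 h) and 0.22 (8 h) against control siRNA, and 0.04 (24 h) and 0.01 (6 h) against no siRNA. Among 6 B cell markers CD79A (0.41) and CD74 (0.37) rose and 0 fell, where 5.56% of all rows rose and 10.2% fell. CD79B (0.20), PAX5 (0.10), MS4A1 (-0.06) and CD22 (-0.06) did not pass. Of the monocyte markers 2 of 5 and of the erythroid markers 2 of 5 had values on at least 2 arrays, and 0 passed. The part of these shifts in the carriers' values was not tested.

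Across the carriers, mean ratios of MYC siRNA over control lay on both sides of 0, with 18 of 37 means below it and 19 above. Of the 35 carriers on all 4 arrays, 3 fell (SLC30A5, SLC46A3 and SLC12A7), 2 rose (SLC38A9 and SLCO3A1) and 30 did not pass. The test was limma on the mean of the 4 ratios, with Benjamini-Hochberg adjustment over 6798 genes and unnamed features and a threshold of 0.05. The 5 calls are 14.3% of the carriers, against 15.8% of all rows called (10.2% lower and 5.56% higher), so the share lay near the background. The median mean ratio was -0.026 for the carriers and -0.003 for all rows, with standard deviations of the means of 0.247 for both. An unadjusted limma p under 0.05 was found for 12 of the 35, against 2405 of the 6798 rows. The carriers' median on each array was between -0.060 and 0.001.

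**Figure D1:**
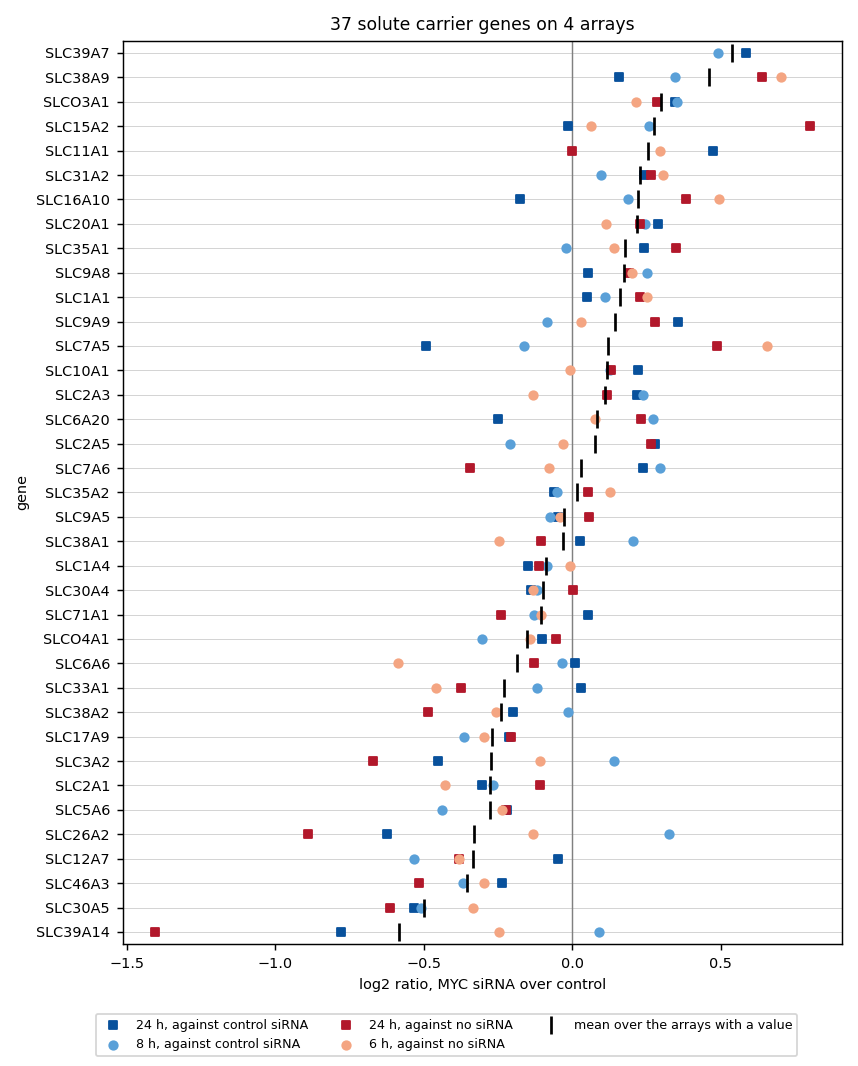
Log2 ratio of MYC siRNA over control (x axis) for each of the 37 solute carrier genes (y axis, ordered by mean), with 1 symbol per array and a black bar for the mean over the arrays with a value. Most genes straddle 0, SLC39A14 reaches -1.40 on the 24 h array against no siRNA, and SLC7A5 lies below 0 on both arrays against control siRNA and above 0 on both against no siRNA.

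SLC30A5 encodes ZnT5, which carries zinc into the early secretory pathway. It was at -0.53 (24 h) and -0.51 (8 h) against control siRNA, and stood at -0.61 (24 h) and -0.33 (6 h) against no siRNA. All 4 arrays lay below 0 within a narrow span. The mean of -0.50 ± 0.12 (SD, n = 4) corresponds to 70.8% of control, with a limma adjusted p of 0.0173 and a 95% interval of -0.69 to -0.30. SLC30A5 was also close between the kinds of control, with means of -0.52 against control siRNA and -0.47 against no siRNA. In limma on 2 arrays alone neither mean passed (adjusted p = 0.0846 and 0.0606). Leaving out the 6 h array gave -0.55 (limma adjusted p = 0.053), and leaving out the 24 h array with control siRNA gave -0.49 (0.0642).

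SLC46A3, a lysosomal carrier of the family that includes the intestinal folate carrier, was at -0.24 (24 h) and -0.37 (8 h) against control siRNA, and stood at -0.52 (24 h) and -0.30 (6 h) against no siRNA. Each array was below 0, and the mean was -0.35 ± 0.12 (SD, n = 4; limma adjusted p = 0.0304). SLC12A7, the potassium-chloride cotransporter KCC4, was at -0.05 (24 h) and -0.53 (8 h) against control siRNA, and stood at -0.38 at both times against no siRNA. The 24 h array against control siRNA stood nearest 0. Its mean of -0.34 ± 0.20 (SD, n = 4) lay at the edge of the threshold (limma adjusted p = 0.0489, 95% interval -0.56 to -0.11), and passed neither with array medians subtracted (0.0511) nor with the median of its features (0.0502). With any 1 array left out, neither gene passed in limma (adjusted p from 0.0683 for SLC12A7 without the 24 h array against control siRNA to 0.154 for SLC12A7 without the 8 h array).

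SLC38A9 is a lysosomal amino acid carrier that reports arginine to the Rag GTPases upstream of mTORC1. It had the highest mean of the carriers on all 4 arrays, with 0.16 (24 h) and 0.35 (8 h) against control siRNA, and 0.64 (24 h) and 0.70 (6 h) against no siRNA. All 4 values lay above 0, and both arrays against no siRNA lay above both against control siRNA. The mean was 0.46 ± 0.25 (SD, n = 4), or 138% of control (limma adjusted p = 0.0273). By kind of control it averaged 0.25 against control siRNA (limma adjusted p = 0.246) and 0.67 against no siRNA (0.00402), and the difference between the kinds, -0.42, did not pass (0.435).

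SLCO3A1, an organic anion transporting polypeptide, varied least among the called genes. It was at 0.35 at both 24 h and 8 h against control siRNA, and stood at 0.29 (24 h) and 0.21 (6 h) against no siRNA. The mean was 0.30 ± 0.06 (SD, n = 4; limma adjusted p = 0.0402). With any 1 array left out, SLC38A9 and SLCO3A1 kept positive means (0.38 to 0.56 and 0.28 to 0.33), but neither passed in limma (adjusted p from 0.0559 for SLC38A9 without the 8 h array to 0.128 for SLCO3A1 without the 24 h array against control siRNA). Each of SLC30A5, SLC46A3, SLC38A9 and SLCO3A1 rested on 1 feature, and SLC12A7 on 2.

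Promoter sequence is shown for the carrier that fell with the lowest adjusted p (SLC30A5) and for 3 that carry the 6-base E-box CACGTG, the site MYC is known to bind with MAX, and that come up by mean, time or kind of control (SLC12A7, SLC26A2 and SLC7A5). Each window holds the 250 bases before the annotated start of transcription, from RefSeq on GRCh38.p14, 5′ to 3′ on the gene's strand, in lower case with CACGTG in capitals. The windows are chr5:69093764-69094013 on the plus strand for SLC30A5, chr5:1112064-1112313 on the minus strand for SLC12A7, chr5:149960508-149960757 on the plus strand for SLC26A2, and chr16:87869508-87869757 on the minus strand for SLC7A5.
SLC30A5: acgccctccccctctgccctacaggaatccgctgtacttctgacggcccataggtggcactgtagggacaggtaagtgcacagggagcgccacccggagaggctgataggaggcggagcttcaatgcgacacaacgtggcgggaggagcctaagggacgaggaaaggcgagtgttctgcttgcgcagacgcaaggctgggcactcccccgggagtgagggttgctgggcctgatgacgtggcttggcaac
SLC12A7: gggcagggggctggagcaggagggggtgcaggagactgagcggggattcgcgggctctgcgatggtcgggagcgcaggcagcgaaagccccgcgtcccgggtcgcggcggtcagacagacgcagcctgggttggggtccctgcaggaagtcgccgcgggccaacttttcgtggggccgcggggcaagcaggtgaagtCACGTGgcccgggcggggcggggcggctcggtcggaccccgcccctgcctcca
SLC26A2: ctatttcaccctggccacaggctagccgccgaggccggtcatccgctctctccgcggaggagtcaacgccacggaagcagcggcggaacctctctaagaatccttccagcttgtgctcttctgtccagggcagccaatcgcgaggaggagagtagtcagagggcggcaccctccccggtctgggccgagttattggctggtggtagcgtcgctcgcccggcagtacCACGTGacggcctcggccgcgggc
SLC7A5: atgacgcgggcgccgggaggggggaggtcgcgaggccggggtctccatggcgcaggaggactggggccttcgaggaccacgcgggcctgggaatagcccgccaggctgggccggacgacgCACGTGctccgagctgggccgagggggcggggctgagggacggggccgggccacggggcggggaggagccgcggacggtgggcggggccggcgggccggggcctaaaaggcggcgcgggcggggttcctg
CACGTG, which reads the same on both strands, began 53 bases before the start in SLC12A7, 24 bases before it in SLC26A2 and 130 bases before it in SLC7A5. SLC30A5 has no CACGTG in this window. Promoters were listed for 31 of the 37 carriers, and 5 of them held the motif, the others being SLC20A1 and SLC9A5. Counted by start site this was 5 of 40 (12.5%), against 2228 of all 35116 listed windows of this length (6.34%). The listed windows were not limited to genes measured on these arrays, so the shares cover unlike sets. SLC12A7 fell, and it was the only one of the 5 called carriers with a match in a listed window. The mean over arrays passed for none of the other 4 genes with the motif (SLC26A2, SLC7A5, SLC20A1 and SLC9A5). Their means were -0.33, 0.12, 0.22 and -0.03. With complete features only, SLC20A1 averaged 0.30 and passed (limma adjusted p = 0.0381). A match is a description of the letters and not of binding.

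Amino acid carriers made up the most numerous class, with 10 genes on all 4 arrays, of which SLC38A9 rose, 0 fell and 9 did not pass (class median 0.056). SLC7A5 encodes LAT1, the exchanger of leucine and other large neutral amino acids, and SLC3A2 the heavy chain (CD98) that carries it to the plasma membrane. SLC7A5 was at -0.49 (24 h) and -0.16 (8 h) against control siRNA, and stood at 0.49 (24 h) and 0.66 (6 h) against no siRNA. The 2 kinds of control did not overlap and lay on opposite sides of 0, so the mean of 0.12 ± 0.54 (SD, n = 4; limma adjusted p = 0.639) describes neither. SLC3A2 was at -0.45 (24 h) and 0.14 (8 h) against control siRNA, and stood at -0.67 (24 h) and -0.11 (6 h) against no siRNA. Both 24 h arrays were below both early ones, and the mean was -0.27 ± 0.36 (SD, n = 4; limma adjusted p = 0.163).

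SLC3A2 had 2 features, and the one with a value on all 4 arrays was at -0.67 (24 h) and -0.16 (8 h) against control siRNA, and stood at -0.67 (24 h) and -0.11 (6 h) against no siRNA. The other had values against control siRNA alone, -0.23 at 24 h and 0.44 at 8 h. With complete features only, SLC3A2 averaged -0.40 and passed (limma adjusted p = 0.045). With 1 array left out, the mean over both features ran from -0.41 (8 h left out; limma adjusted p = 0.0806) to -0.14 (24 h with no siRNA as control left out; 0.488). The gene mean thus joined arrays on which different features had values.

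SLC38A2, the sodium-coupled carrier SNAT2 of glutamine and other neutral amino acids, was below 0 on all 4 arrays, with a mean of -0.24 ± 0.19 (SD, n = 4; limma adjusted p = 0.116). The 2 features of SLC38A2 lay on both sides of 0, at -0.59 and 0.12. Its relative SLC38A1 (SNAT1) averaged -0.03 ± 0.19, with 2 arrays on each side of 0. SLC1A4, the alanine, serine, cysteine and threonine exchanger ASCT1, averaged -0.09 ± 0.06, and SLC1A1, the glutamate carrier EAAT3, 0.16 ± 0.10 (SD, n = 4 each). SLC1A1 lay above 0 and SLC1A4 below 0 on all 4 arrays, and neither passed (limma adjusted p = 0.199 and 0.464). SLC16A10, the aromatic amino acid carrier TAT1, averaged 0.22 ± 0.29 and SLC6A20, the proline carrier SIT1, 0.08 ± 0.24, each with 1 array below 0, the 24 h array against control siRNA. SLC7A6, another partner of the SLC3A2 protein, was at 0.24 (24 h) and 0.30 (8 h) against control siRNA, and stood at -0.34 (24 h) and -0.08 (6 h) against no siRNA, opposite in sign to SLC7A5 by kind of control. Its 1 complete feature averaged -0.19, against 0.03 for the gene, and 2 others had values on 3 arrays each.

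Around these carriers, genes of amino acid sensing by mTORC1 had 12 measured members, of which 3 fell, 1 rose and 8 did not pass (median 0.009). Of all rows in the same fit 10.2% fell and 5.56% rose, with a median of -0.003. The kinase gene MTOR was at -0.49 ± 0.19, LAMTOR3, of the lysosomal Ragulator complex, at -0.46 ± 0.20, and RHEB, the GTPase that activates mTORC1, at -0.38 ± 0.24 (SD, n = 4 each). SESN3, of the sestrin family of mTORC1 inhibitors, rose (0.36 ± 0.11). A list built around the ATF4 response to amino acid shortage had 14 genes on all 4 arrays. Of these, 3 fell, 0 rose and 11 did not pass (median -0.20), beside the same 10.2% of all rows lower and 5.56% higher. The list also held the eIF2 alpha subunit gene EIF2S1 and eIF2 kinase genes, which act upstream of ATF4. The 3 that fell were CBS (-0.37) and CTH (-0.32), enzymes of transsulfuration, and EIF2S1 (-0.36). ATF4 itself averaged -0.26 (limma adjusted p = 0.145), with -0.29 (24 h) and 0.03 (8 h) against control siRNA, and -0.68 (24 h) and -0.11 (6 h) against no siRNA. Medians of the 15 listed genes on at least 2 arrays were -0.20 (24 h) and -0.02 (8 h) against control siRNA. Against no siRNA they were -0.39 (24 h) and -0.01 (6 h). The list was not tested by time.

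Metal carriers spanned the widest range of class means, from -0.58 (SLC39A14) to 0.54 (SLC39A7). Of the 4 on all arrays SLC30A5 fell and 3 did not pass. SLC39A14 encodes ZIP14, an importer of zinc, iron and manganese. It was at -0.78 (24 h) and 0.09 (8 h) against control siRNA, and stood at -1.40 (24 h) and -0.25 (6 h) against no siRNA. The mean over arrays, -0.58 ± 0.65 (SD, n = 4), did not pass (limma adjusted p = 0.0766), and the arrays spanned 0.09 to -1.40. Leaving out a 24 h array gave -0.52 (control siRNA as control; limma adjusted p = 0.202) or -0.31 (no siRNA as control; 0.224). It passed without the 8 h array (-0.81; 0.047) and with time and kind of control as terms (0.000307), a fit in which 29.1% of all rows were called. SLC39A7, the zinc carrier ZIP7 that releases zinc from the endoplasmic reticulum, had values against control siRNA alone, 0.58 at 24 h and 0.49 at 8 h. In the fit that kept rows with at least 2 arrays it averaged 0.54, from 2 arrays, and did not pass (limma adjusted p = 0.0512).

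SLC31A2, an intracellular copper carrier, lay above 0 on each array, with 0.24 (24 h) and 0.10 (8 h) against control siRNA, and 0.27 (24 h) and 0.31 (6 h) against no siRNA. It averaged 0.23 ± 0.09 (SD, n = 4; limma adjusted p = 0.0906). SLC30A4, the vesicular zinc carrier ZnT4, averaged -0.10 ± 0.07. SLC11A1, the phagosomal metal carrier NRAMP1, had no value on the 8 h array and averaged 0.26 ± 0.24 over the other 3 (limma adjusted p = 0.189 in the fit that kept such rows).

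Among hexose carriers 0 of 3 passed (class median 0.076). SLC2A1, the glucose carrier GLUT1, was below 0 on all arrays, with -0.30 (24 h) and -0.27 (8 h) against control siRNA, and -0.11 (24 h) and -0.43 (6 h) against no siRNA. Its mean was -0.28 ± 0.13 (SD, n = 4; limma adjusted p = 0.062, 95% interval -0.48 to -0.08) and did not pass. Of the alternative fits by gene it passed only with time and kind of control as terms (0.0337), where 29.1% of all rows were called. With 1 array left out its limma adjusted p ran from 0.0741 to 0.169. SLC2A3 (GLUT3) averaged 0.11 ± 0.17 and the fructose carrier SLC2A5 (GLUT5) 0.08 ± 0.24. These unlike values within the family are differences in ratio and say nothing of which carrier is more abundant.

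Of the vitamin and folate class, SLC46A3 fell and SLC5A6 did not pass, and of the neurotransmitter, osmolyte and vesicle class 0 of 2 passed. SLC5A6, the sodium-coupled carrier SMVT of biotin and pantothenate, was at -0.22 (24 h) and -0.44 (8 h) against control siRNA, and stood at -0.22 (24 h) and -0.24 (6 h) against no siRNA. It averaged -0.28 ± 0.11 (SD, n = 4; limma adjusted p = 0.0556). SLC17A9, the vesicular nucleotide carrier VNUT that loads ATP into secretory vesicles, was at -0.21 (24 h) and -0.36 (8 h) against control siRNA, and stood at -0.21 (24 h) and -0.30 (6 h) against no siRNA. It averaged -0.27 ± 0.07 (SD, n = 4; limma adjusted p = 0.0554). Both lay below 0 on every array just outside the threshold, and both passed when arrays were scaled to equal spread (0.0443 and 0.0429). The taurine carrier SLC6A6 averaged -0.19 ± 0.27, but 2 of its 3 features had values on 2 arrays each, and the complete one averaged 0.16.

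Of 5 ion exchangers and cotransporters SLC12A7 fell and 4 did not pass. SLC26A2, a sulfate carrier, was at -0.62 (24 h) and 0.33 (8 h) against control siRNA, and stood at -0.89 (24 h) and -0.13 (6 h) against no siRNA, with a mean of -0.33 ± 0.54 (SD, n = 4; limma adjusted p = 0.198). The 24 h values did not overlap the early ones, and leaving out 1 array moved the mean as far as -0.14 (24 h, no siRNA as control) and -0.55 (8 h). The sodium-proton exchanger genes SLC9A8, SLC9A9 and SLC9A5 averaged 0.18 ± 0.08, 0.14 ± 0.21 and -0.03 ± 0.06. The 2 features of SLC9A5 averaged -0.30 and 0.25, so its gene mean near 0 describes neither. SLC20A1, the phosphate carrier PiT-1 and the 1 gene of its class, averaged 0.22 ± 0.08 with all 4 arrays above 0 (limma adjusted p = 0.095). Its 2 complete features averaged -0.16 and 0.76, so the gene mean and its small spread describe neither.

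Nucleotide sugar and acetyl-CoA carriers had 0 of 3 genes past the threshold (class median 0.017). SLC33A1, which brings acetyl-CoA into the endoplasmic reticulum, averaged -0.23 ± 0.23, SLC35A1, the CMP-sialic acid carrier of the Golgi, 0.18 ± 0.16, and SLC35A2, the UDP-galactose carrier, 0.02 ± 0.09. The 3 features of SLC35A2 averaged from -0.38 to 0.29. In the class of organic ions, bile acids, peptides and drugs, SLCO3A1 rose and 3 of 4 did not pass (class median 0.198). The peptide carrier SLC15A2 was at -0.01 (24 h) and 0.26 (8 h) against control siRNA, and stood at 0.80 (24 h) and 0.06 (6 h) against no siRNA. Its mean of 0.28 ± 0.37 (SD, n = 4) was set mostly by the 24 h array against no siRNA, and was 0.10 without it. SLC10A1, the bile acid carrier of hepatocytes, averaged 0.12 ± 0.09, and SLCO4A1 -0.15 ± 0.11. SLC71A1, which stands outside these classes, averaged -0.11 ± 0.12. Monocarboxylate carriers and lipid and choline carriers had 0 members here.

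Carriers were also compared by time after electroporation. SLC39A14 was lower at 24 h than at the early time by 1.01 (mean -1.09 at 24 h and -0.08 early; limma, time and kind of control as terms, adjusted p = 0.0357, 95% interval -1.40 to -0.62). It was the 1 carrier of 35 to pass, against 0.118% of all rows (8 of 6798; 0.0883% lower and 0.0294% higher). An unadjusted limma p under 0.05 was found for 4 of the 35 carriers, against 687 of the 6798 rows. The other differences were SLC26A2 at -0.86 (mean -0.76 at 24 h and 0.10 early; adjusted p = 0.0777), SLC3A2 at -0.58 (mean -0.56 at 24 h and 0.02 early; 0.247) and SLC2A5 at 0.39 (mean 0.27 at 24 h and -0.12 early; 0.484) in the same limma fit.

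**Figure D2:**
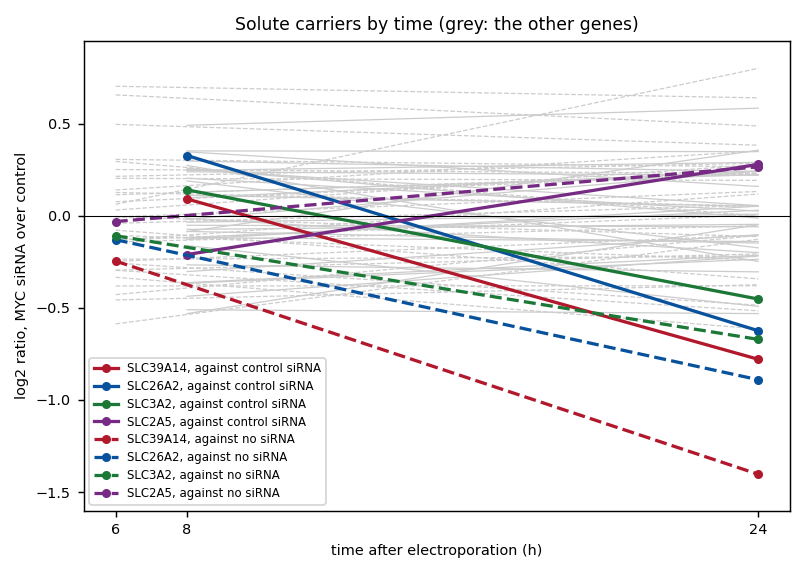
Log2 ratio of MYC siRNA over control (y axis) at 6, 8 and 24 h after electroporation (x axis, h), 1 line per gene and kind of control (solid against control siRNA, dashed against no siRNA; SLC39A14, SLC26A2, SLC3A2 and SLC2A5 in colour, other carriers in grey). SLC39A14, SLC26A2 and SLC3A2 slope down in both kinds of control, at 24 h to -0.78, -0.62 and -0.45 against control siRNA and to -1.40, -0.89 and -0.67 against no siRNA.

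For these 3 genes the order held within each kind of control, with each 24 h array below its early array. They were named for their differences on the same arrays, so this order is not separate support. SLC39A14 stood at -0.78 late, against 0.09 early, with control siRNA as control, and at -1.40 late, against -0.25 early, with no siRNA. The 24 h array against no siRNA also had the widest spread over all features. When arrays were scaled to equal spread the difference of SLC39A14 was -0.79 and did not pass (limma adjusted p = 0.59). It also did not pass with time as the only term (0.747). The fit left 1 residual degree of freedom per row, so its standard errors rest mostly on the spread pooled over rows (17.5 prior degrees of freedom). SLC39A14 and SLC26A2 rested on 1 feature each. In the opposite direction, the next differences were SLC9A9 at 0.34, SLC6A6 at 0.25 and SLC12A7 at 0.24, none of which passed. SLC7A5 was at -0.25 (mean -0.003 at 24 h and 0.25 early; adjusted p = 0.723).

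By kind of control, 0 of 35 carriers differed in limma, against 0.0883% of all rows (6 of 6798). An unadjusted limma p under 0.05 was found for 5 of the 35, against 685 of the 6798 rows. SLC7A5 came nearest, with a difference of -0.90 between the means of -0.33 against control siRNA and 0.57 against no siRNA (adjusted p = 0.066, 95% interval -1.28 to -0.51). SLC16A10, also an amino acid carrier, averaged 0.01 against control siRNA and 0.44 against no siRNA, a difference of -0.43 (adjusted p = 0.417). In the other direction SLC39A14 differed by 0.48 (-0.34 against control siRNA and -0.82 against no siRNA) and SLC7A6 by 0.48 (0.27 and -0.21), without passing (0.333 and 0.33). With complete features only, the SLC7A6 difference was 0.20 (limma adjusted p = 0.868). SLC33A1 and SLC26A2 differed by 0.37 and 0.36, and SLC15A2 by -0.31. SLC38A9 differed by -0.42. Each kind of control had its own pair of early and late arrays, so a difference between experiments and one between controls cannot be told apart.

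**Figure D3:**
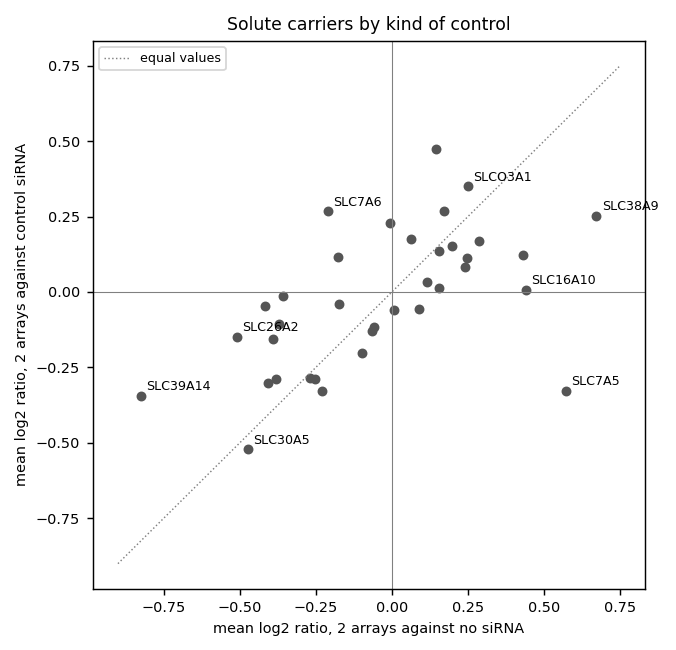
Mean log2 ratio of MYC siRNA over control for each carrier with values in both, over the 2 arrays against control siRNA (y axis) and the 2 against no siRNA (x axis), with a dotted line of equal values. SLC7A5 lies farthest into the lower right, at -0.33 against control siRNA and 0.57 against no siRNA, while SLC30A5 lies near the line at -0.52 and -0.47.

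Fitted within each kind of control, 0 of 36 carriers passed against control siRNA, where 0.065% of all rows passed (0.052% lower and 0.013% higher). There, 8 of the 36 had an unadjusted limma p under 0.05, against 1821 of 7687 rows. Against no siRNA 4 of 36 passed, 2 lower and 2 higher, where 9.64% of all rows passed (5.81% lower and 3.83% higher). The 4 were SLC39A14 (-0.82), SLC26A2 (-0.51), SLC38A9 (0.67) and SLC7A5 (0.57), with limma adjusted p values of 0.000214, 0.0406, 0.00402 and 0.0186. SLC39A14, SLC26A2 and SLC7A5 were not among the genes called over all 4 arrays. Each of these fits rests on 2 arrays.

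Features of the same carrier often differed. Of 13 carriers with 2 or more features on all arrays, 6 had feature means on both sides of 0 (46.2%), as did 51.0% of 1837 named genes with such features. The median gap between the lowest and highest feature mean was 0.17 for the carriers and 0.31 for those genes. SLC12A7 agreed best, with feature means of -0.34 and -0.33. SLC20A1 differed most. Its 2 complete features averaged -0.16 and 0.76, and a further feature, with no value on the 8 h array, 0.002.

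**Figure D4:**
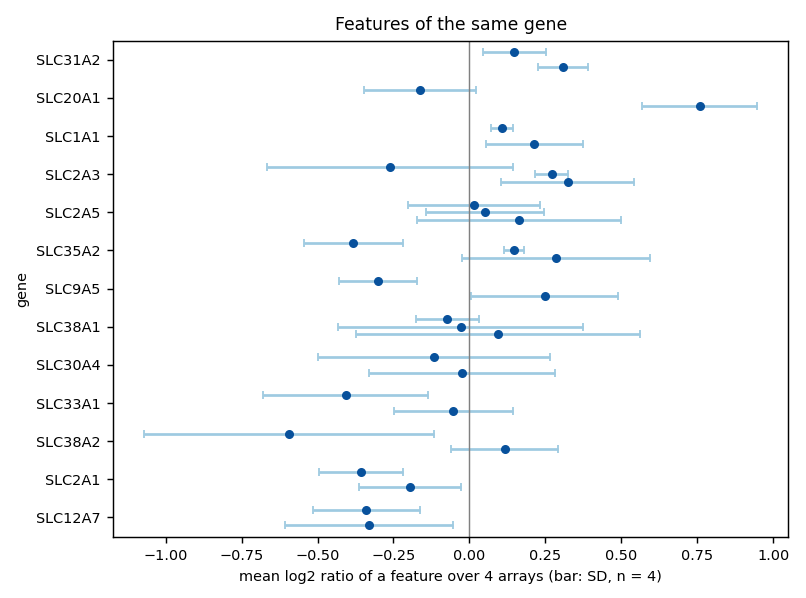
Mean log2 ratio of each feature over the 4 arrays (x axis; bars show the SD, n = 4) for the 13 carriers with at least 2 features on all arrays (y axis). The features of SLC12A7 coincide, whereas those of SLC20A1, SLC38A2, SLC35A2, SLC2A3, SLC9A5 and SLC38A1 fall on both sides of 0.

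The higher SLC20A1 feature was at 0.79 (24 h) and 0.53 (8 h) against control siRNA, and stood at 0.99 (24 h) and 0.72 (6 h) against no siRNA. Taken as a row of its own it passed (limma adjusted p = 0.00631), while the gene did not in the main fit. With complete features only, the gene averaged 0.30 and passed (limma adjusted p = 0.0381). One SLC38A2 feature averaged -0.59 and passed (limma adjusted p = 0.0261), and the other averaged 0.12. SLC35A2 had features at -0.38 (0.0281), 0.15 and 0.29, and SLC33A1 at -0.41 (0.0351) and -0.05. For SLC2A3 the feature means were -0.26, 0.27 and 0.32. With every feature as a row of its own, 12 of 52 carrier features passed, 8 lower and 4 higher, where 19.4% of 10161 features did (12.3% lower and 7.09% higher). The files do not say which transcripts or splice forms single features detect, and features of 1 gene are not independent.

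Related genes measured on the same arrays were counted in the same way. Of 7 SLC25A carriers on all arrays 1 fell, SLC25A33 (-0.78), 0 rose and 6 did not pass (median 0.002). Among 8 ABC transporters ABCA5 rose (0.38) and 7 did not pass (median 0.071). Of 2 ion-pump ATPases ATP2A3 rose (0.44) and ATP6V0B (-0.18) did not pass. Beside these counts, 10.2% of all rows fell and 5.56% rose. The SLC symbols outside the rule had 0 calls among 5 on all arrays (median 0.006), with SLC9B1 at 0.21 and the sodium-calcium exchanger gene SLC8B1 at 0.20. Over the carriers on all arrays, 9 were below 0 on all 4 (25.7%, against 23.3% of all rows), 6 above 0 on all 4 (17.1%, against 19.4%), and 20 had both signs.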

How the data were processed

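Each array compared RNA of OCI-Ly10 cells with MYC siRNA (Cy5) and control RNA (Cy3), per the labels. The values are the log2 ratios deposited by the authors, 1 per feature and array. How background was corrected, how arrays were normalized and why some cells are empty is not given in the sources used here. Log base and direction were inferred. Signal over background is unknown, so no dim features were filtered.

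Of 15154 features, 10161 had a value on all 4 arrays and 903 on none. Symbols came from the platform annotation (1 symbol for 10165 features, several for 4, none for 4985), updated through a RefSeq table where the Entrez ID matched (10124 features). Features of 1 symbol were averaged on each array and unnamed features kept as rows. The 6798 rows complete on all arrays were fitted with limma 3.58.1 (lmFit and eBayes, R 4.3.3), with Benjamini-Hochberg adjustment over them. The mean was tested against 0 (3 residual and 6.31 prior degrees of freedom), and time and kind of control as terms of a second model. The code was tested on simulated data. Replicate numbers follow the listing only. Since separate cultures are not named, p-values reflect only how these arrays vary, which may be technical, and the number of arrays limits the precision (median standard error 0.0951).

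The members, the substrate classes, the other gene lists and the rule for named genes were chosen with earlier results of these data known, and p-values were not adjusted over the carriers alone. The named genes are MYC, every member past a threshold, the members with the lowest and highest means in all and by class, by time and by kind of control, and up to 3 genes of each other list. Beyond it, SESN3, ATF4, the single B cell markers, SLC8B1, SLC9B1, the remaining members and single features were named after their values were seen. Alternatives concerned array scaling, feature averaging, rows kept, model terms, moderation and arrays left out.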

Additional observations from a re-analysis of the deposited data

Results flagged for a closer look

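Of 35 carriers with 4 values, 2 had an array far from the other 3 by Dixon's criterion, close to the 1 in 20 that chance gives. SLC5A6 was at -0.437 on the 8 h array against control siRNA, and SLC30A4 at 0.0043 on the 24 h array against no siRNA. SLC39A14 differed with time, by -1.01 between 24 h and the early arrays (limma adjusted p = 0.0357). SLC2A5 lay above 0 on both 24 h arrays and below 0 on both early ones, with a difference of 0.39 that did not pass in limma (adjusted p = 0.484). On opposite sides of 0 by kind of control, without passing in limma, were SLC7A5 (difference -0.90, against control siRNA minus against no siRNA; adjusted p = 0.066), SLC7A6 (0.48; 0.33), SLC38A1 (0.29; 0.672) and SLC35A2 (-0.15; 0.91). SLC38A1, SLC35A2 and SLC7A6 are means of features that themselves differ. How many of all rows lie on opposite sides of 0 by time or by kind of control was not counted. These flags therefore do not set the carriers apart from other genes.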

How the results depend on the processing

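Each value already sets MYC siRNA against its control on the same array, and the time fit kept kind of control as a term. The labels give no replicate numbers by which cultures could be paired further. For MYC siRNA over control, with 3 carriers lower, 2 higher and 1073 rows called, leaving out 1 array gave 0 to 2 lower (SLC30A5 and SLC39A14 without the 8 h array), 0 higher and 0 to 441 rows (0 without the 6 h array, where 9 carriers had an unadjusted p under 0.05 in limma; 4 without the 24 h array against control siRNA, 234 without that against no siRNA), and the carriers' median ran from -0.060 to -0.0059. Scaling the arrays gave 5 lower, time and control as terms 9 lower of 1980 rows called, single features 8 lower and 4 higher of 1971, rows with at least 2 arrays 1 higher and a median of 0.017, and the arrays against control siRNA 0 lower and 0 higher of 5. MYC averaged -0.64 against control siRNA and did not pass (limma adjusted p = 0.0917). With 1 array left out it ran from -1.08 to -0.77 and missed the threshold when the 6 h array was the one left out (0.053).

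For time, 1 carrier lower and 8 rows called became 2 and 61 with medians subtracted and 2 and 98 with the median of features. Complete features gave 2 and 26, while scaled arrays and time alone each gave 0 and 0. In limma 5 and 4 of 35 carriers then had an unadjusted p under 0.05, against 536 and 437 of 6798 rows. For kind of control, 0 carriers and 6 rows became 1 and 89, 1 and 162, and 1 and 37 in the first 3 settings. The carrier was SLC7A5 each time. Scaled arrays or that term alone gave 0 rows. Then 5 and 3 of 35 carriers had an unadjusted limma p under 0.05, against 629 and 454 of 6798 rows. The cause was not tested. Signs turned only for carriers that did not pass: SLC6A6 (0.16) and SLC7A6 (-0.19) with complete features, SLC7A6 with the median of features (-0.011), SLC38A1 (0.11), SLC35A2 (-0.056) and SLC7A5 (-0.33) against control siRNA, and SLC9A5 (0.0075), SLC7A6 (-0.21) and SLC2A3 (-0.0073) against no siRNA. With 1 array left out, means ran from -0.109 to 0.041 for SLC38A1, -0.019 to 0.043 for SLC35A2, -0.060 to 0.153 for SLC7A6 and -0.056 to 0.327 for SLC7A5. Time and kind of control were not refitted with an array left out, since no residual degree of freedom remains. Signal over background is unknown, so what dim features limit is too.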
